A study of Mus musculus with 20 samples.

Results

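CAR cells (CXCL12-abundant reticular cells) and PaS cells (PDGFRα+Sca1+ cells) of normal mouse bone marrow were compared by RNA-seq of sorted cells. The comparison uses 6 of the 20 samples of the series, 3 CAR and 3 PaS libraries. All mice behind these 6 libraries were Ebf1+/+;Prx1+/cre on C57BL/6, so the controls carry the Prx1-cre transgene too, which expresses Cre recombinase in limb mesenchyme. They carry no floxed Ebf1 allele. The series has 6 further RNA libraries, 3 CAR and 3 PaS, from Ebf1fl/fl;Prx1+/cre mice (ko below), whose Ebf1 alleles are both floxed and open to deletion by Cre. Femora and tibiae were crushed and digested with collagenase and DNase, and both populations were sorted as CD45-CD31-Lin-PDGFRα+ cells, CAR as Sca1- and PaS as Sca1+. The ages of the mice, and whether the replicates of a group are separate mice or pools, are not given in the sources used here, so the p-values measure the spread between these libraries, which may be technical. Expression is given in FPKM (fragments per kilobase of a transcript and per unit of mapped fragments), a scale that makes levels comparable between genes of different length. Of the 24347 genes in each table, 12441 were tested, those with at least 1 FPKM in 3 or more of the 6 libraries.

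Bone marrow stroma holds the mesenchymal cells that build bone, store fat and feed the blood-forming cells. CAR cells surround the marrow sinusoids and secrete CXCL12 and stem cell factor (the product of Kitl), which hold blood stem cells and B cell precursors in the marrow. They overlap with the leptin receptor+ stroma and can give rise to fat cells and bone cells. PaS cells lie around arteries and near the bone surface, and are known for forming colonies and giving rise to bone, cartilage and fat in culture. Sca1, the product of Ly6a, is also carried by fibroblast progenitors of many other tissues.

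The genes of the sort gate matched the labels. Ly6a was at 4.03, 4.38 and 5.58 FPKM in the 3 CAR libraries and at 1972, 1740 and 2176 FPKM in the 3 PaS libraries. This gap was set by the gate and is not a finding. Pdgfra, which both gates require, was at 57.9 ± 2.77 FPKM in CAR and 142 ± 6.64 FPKM in PaS (SD, n = 3). The gates exclude CD45 and CD31, and their genes Ptprc (6.46 ± 1.36 and 11.8 ± 2.66 FPKM) and Pecam1 (1.67 ± 0.349 and 5.67 ± 0.429 FPKM) were low and higher in PaS. Of 28 genes listed as CAR markers, 26 were higher in CAR, and of 28 tested genes of 29 listed as markers of PaS cells and fibroblast progenitors, 28 were higher in PaS. For all tested genes these shares were 20.2% and 22.1%. A further PaS marker, Opcml, did not reach the filter, and 4 of the 28 reached it only through the PaS libraries.

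Depth could not be read from FPKM. The summed FPKM were 491801 to 526074 per library, and 11985 to 12295 genes reached 1 FPKM. Across tested genes on the log2 scale, replicates correlated with a Pearson r of 0.9834 to 0.9888 and libraries of different populations with 0.8873 to 0.8976. The first principal component, 83.6% of the variance, separated the populations. The library PaS wt 1 stood apart in 1 respect, with 24.6% of all genes listed at 0 against 33.3% to 37.0% in the other libraries. An exact 0 stood for Gsn in PaS wt 2 beside 14224 and 14502 FPKM in the other PaS libraries, and was treated as a failed estimate and left out.

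The populations differed in a large share of their transcripts. With limma on log2(FPKM + 1) and Benjamini-Hochberg adjustment over all tested genes at 0.05, 5255 genes (42.2%) differed, 2507 (20.2%) higher in CAR and 2748 (22.1%) higher in PaS. The libraries of the populations did not overlap for 51.7% of the tested genes. Differences of more than 2-fold were fewer, 675 genes higher in CAR (5.43%) and 1012 higher in PaS (8.13%). The larger the difference, the more the count leaned to PaS: 21 genes were higher in CAR by more than 8-fold against 131 in PaS, and 2 against 24 by more than 32-fold. Genes that passed the filter only through 1 population were 140 for CAR and 330 for PaS, and the filter itself gives these a direction. Of the genes named below, Col9a1, Dkk1, Entpd3, Mepe, Phospho1, Prss35 and Unc5c passed it only through CAR, and C7, Col14a1, Col4a5, Cyp2f2, Dkk2, Epyc, Fgf10, Figf, Gbp9, Gpd1, Hoxd9, Il11, Ntrk2, Scg3, Sema3e, Sema3f, Tek, Thy1, Tnxb and Wnt2 only through PaS. At the edge of the filter, Spin2c had a third-highest value of 1.0007 FPKM and was tested, and Xlr3b had 0.9982 FPKM and was not. A higher value in bulk RNA can come from more cells of a type in the gate or from more RNA per cell, which cannot be told apart here. Fold changes are on the log2(FPKM + 1) scale, which understates the change of genes near or under 1 FPKM.

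**Figure D1:**
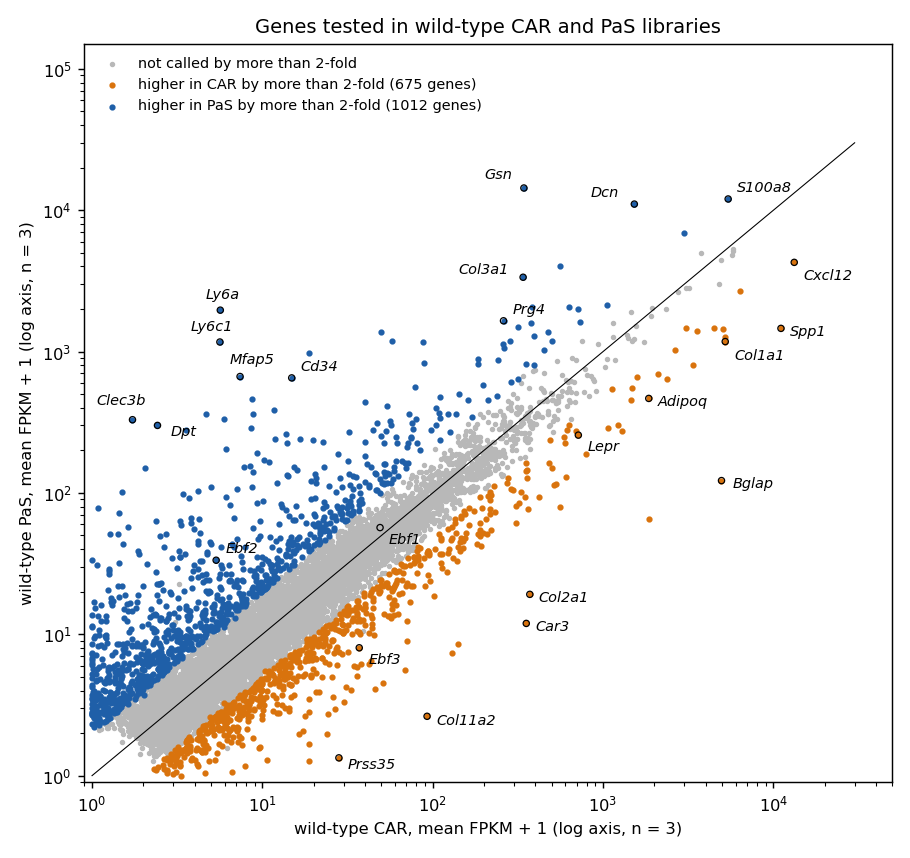
Mean FPKM + 1 of every tested gene in wild-type CAR libraries (horizontal, log axis) and PaS libraries (vertical, log axis), n = 3 each, with genes called by more than 2-fold coloured by direction. The PaS side holds the points farthest from the diagonal, led by Ly6a, Ly6c1, Clec3b and Dpt, and Bglap and Col11a2 are farthest on the CAR side.

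The most abundant genes were mostly different. In CAR the 5 highest genes were Cxcl12 (13251 FPKM), the bone matrix phosphoprotein gene Spp1 (11075), the MHC class I light chain gene B2m (6332), the extracellular glutathione peroxidase gene Gpx3 (5819) and the protease inhibitor gene Cst3 (5792). In PaS they were the actin-binding protein gene Gsn (14363 over the 2 PaS libraries with an estimate), the neutrophil gene S100a8 (12011), the collagen-binding proteoglycan gene Dcn (11051), S100a9 (6891) and again Cst3 (5343), which did not pass the test, though it did without PaS wt 3 (log2 difference 0.20, adjusted p = 0.016). The Gpx3 difference was lost without CAR wt 2, CAR wt 3, PaS wt 1 or PaS wt 2. S100a8 and S100a9 belong to neutrophils, which neither gate is meant to hold, and are taken up with the blood cell markers.

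The factors that feed blood-forming cells were mostly higher in CAR. Cxcl12, the chemokine that retains stem cells and B cell precursors, was at 12899, 13206 and 13648 FPKM in CAR and at 4369, 4203 and 4258 FPKM in PaS. The libraries did not overlap, but PaS cells were far from negative, and Cxcl12 was 3.10 times as high in CAR (log2 difference 1.63 ± 0.05, SE, limma adjusted p = 5.9e-11). Kitl was at 130 ± 2.51 FPKM in CAR and 33.4 ± 2.67 FPKM in PaS, and Il7, which B cell precursors need, at 31.0 ± 4.70 and 10.6 ± 1.45 FPKM. Of 26 tested members of a list of 30 blood stem cell and lymphoid niche factors, 15 were higher in CAR and 4 in PaS, with a median log2 difference of 0.88 against -0.00 for all tested genes. The CAR side also held the adhesion molecule gene Vcam1 (593 and 246 FPKM), the macrophage growth factor genes Csf1 (258 and 132) and Il34 (188 and 53.8), Bmp6 (188 and 48.3) and N-cadherin, Cdh2 (72.8 and 15.9). The 4 on the PaS side were Nov, a matricellular protein gene of the CCN family (7.67 and 462 FPKM), Tgfb2, Igf1 and Ptn. Thpo, Dll4, Ccl19 and Ccl21a did not reach the filter.

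The marker genes of leptin receptor+ stroma followed the same side. Lepr itself was at 731, 750 and 664 FPKM in CAR and at 255, 270 and 242 FPKM in PaS, and the transcription factor gene Foxc1, which CAR cells need, at 129 ± 3.16 and 47.4 ± 1.01 FPKM. The secreted protein genes Hp (haptoglobin, 3370 ± 96.1 and 804 ± 31.3), Agt (angiotensinogen, 605 ± 33.0 and 128 ± 8.92) and Esm1 (514 ± 12.9 and 113 ± 7.41) were also higher in CAR with no overlap. The BMP antagonist gene Grem1 was at 70.0 FPKM in CAR and 11.5 in PaS. The 2 listed CAR markers that did not pass the test were Ebf1 and Serping1, the complement C1 inhibitor gene (3075 and 2809 FPKM, adjusted p = 0.089), which turned to -0.45 under quantile normalization and passed without PaS wt 3 (0.17, adjusted p = 0.047).

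**Figure D2:**
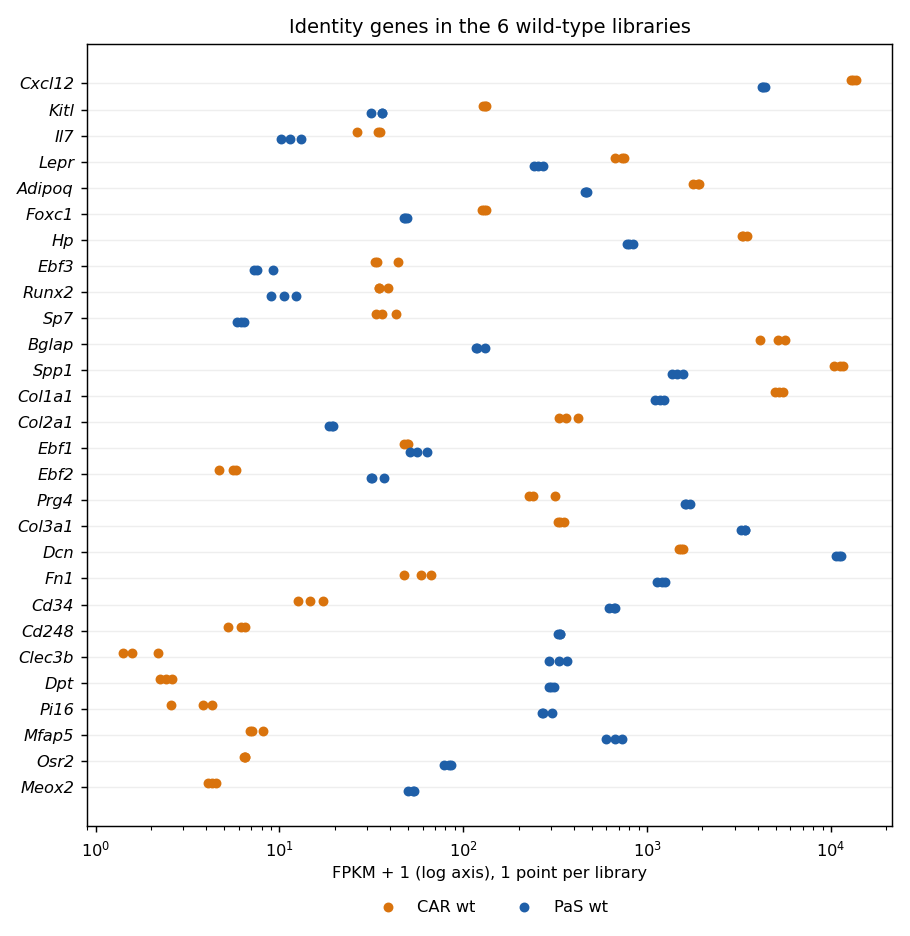
FPKM + 1 (log axis) of listed identity genes in each of the 6 wild-type libraries, 1 point per library, CAR in orange and PaS in blue. The libraries of each gene shown do not overlap between the populations, and the Ebf1 difference did not pass the test. PaS libraries keep Cxcl12 at 4203 FPKM or more, while CAR libraries are at 0.416 to 1.19 FPKM for Clec3b.

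The EBF family of transcription factors, which contains the gene the study deletes, was divided between the populations. Ebf1 was at 48.9, 48.5 and 46.8 FPKM in CAR and at 55.0, 62.1 and 50.5 FPKM in PaS. The PaS values were all above the CAR values, but the difference did not pass the test (log2 difference -0.21 ± 0.09, SE, adjusted p = 0.074). It passed when all 12 RNA libraries were fitted together (adjusted p = 0.036) and without PaS wt 3 (log2 difference -0.28, adjusted p = 0.032). Ebf3, which maintains marrow space in CAR cells, was at 36.0 ± 6.07 FPKM in CAR and 7.03 ± 1.10 FPKM in PaS. Ebf2 ran the other way, at 4.35 ± 0.583 FPKM in CAR and 32.4 ± 3.24 FPKM in PaS. Ebf4 did not reach the filter.

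Adipocyte genes split within their list. Adipoq, which encodes the fat hormone adiponectin, was at 1854 FPKM in CAR and 465 in PaS, lipoprotein lipase, Lpl, at 594 and 225, and the adipogenic factor genes Pparg (44.4 and 26.3) and Cebpa (28.6 and 9.28) also stood higher in CAR. Higher in PaS were the fatty acid carrier gene Fabp4 (35.7 and 112 FPKM), the desaturase gene Scd1 (14.9 and 46.5) and Gpd1 (0.212 and 2.26), while the lipase genes Pnpla2 (14.1 and 17.5) and Lipe (1.65 and 1.86) did not pass the test. Pnpla2 passed without CAR wt 2 (log2 difference -0.39, adjusted p = 0.024). Over the 23 tested of 29 listed genes, 10 were higher in CAR and 8 in PaS. The lipid droplet genes Plin1, Plin4 and Cidec did not reach the filter.

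Bone-forming genes gave the largest differences on the CAR side. Bglap, which encodes osteocalcin, a hormone and matrix protein of mature osteoblasts, was at 4122, 5164 and 5586 FPKM in CAR and 116, 118 and 130 FPKM in PaS. The libraries did not overlap, and mean Bglap was 40.9 times as high in CAR (log2 difference 5.33 ± 0.09, SE, adjusted p = 7.2e-13). Of 27 tested members of 30 osteoblast lineage genes, 22 were higher in CAR and 3 in PaS, with a median log2 difference of 1.79. Transcription factor genes of the lineage, Runx2 (35.1 ± 2.55 and 9.62 ± 1.66 FPKM) and Sp7 (36.7 ± 4.97 and 5.17 ± 0.284), stood higher in CAR. So did genes of later stages, including Dmp1 (139 and 7.47 FPKM), Ifitm5 (128 and 6.40), Phospho1 (8.63 and 0.587) and Mepe (3.16 and 0.208). The osteocyte genes Sost and Fgf23 did not reach the filter. Phospho1 and Mepe passed it only through the CAR libraries. The 3 members higher in PaS were Postn, Kremen1 and Dlx3. PaS libraries were not empty of bone matrix transcripts, with Ibsp at 1274 FPKM and Col1a1 at 1176 FPKM. The summed FPKM of the osteoblast list was 7.77% to 7.99% of the total in CAR and 1.77% to 1.94% in PaS.

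The promoters of a few of these genes are printed to show the sequence around their starts, since Runx2 differed between the populations and binds the word AACCACA. Each is the 250 bases before the annotated start, from RefSeq on GRCm38.p6, with a match to the word on either strand in capitals. Bglap, minus strand, chr3:88384467-88384716, holds no match to the full word, though it holds accaca, the word without its first letter.
Bglap: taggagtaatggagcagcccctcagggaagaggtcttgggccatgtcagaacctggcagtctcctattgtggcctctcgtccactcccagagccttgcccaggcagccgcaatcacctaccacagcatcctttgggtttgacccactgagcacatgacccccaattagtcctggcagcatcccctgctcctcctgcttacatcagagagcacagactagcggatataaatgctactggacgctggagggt
Spp1, plus strand, chr5:104434861-104435110, holds 1 match from -129 to -123 before its start. It was at 11593, 10448 and 11185 FPKM in CAR and 1362, 1565 and 1448 FPKM in PaS.
Spp1: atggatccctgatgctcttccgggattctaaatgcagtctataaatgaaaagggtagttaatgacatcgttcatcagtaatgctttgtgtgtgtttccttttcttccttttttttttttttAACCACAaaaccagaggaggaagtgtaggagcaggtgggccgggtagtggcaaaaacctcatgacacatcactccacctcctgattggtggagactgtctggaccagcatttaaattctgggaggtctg
Mmp13, the collagenase-3 gene of bone and cartilage, plus strand, chr9:7272264-7272513, holds 1 match from -119 to -113, and was at 1347, 1203 and 1331 FPKM in CAR and 266, 281 and 279 FPKM in PaS.
Mmp13: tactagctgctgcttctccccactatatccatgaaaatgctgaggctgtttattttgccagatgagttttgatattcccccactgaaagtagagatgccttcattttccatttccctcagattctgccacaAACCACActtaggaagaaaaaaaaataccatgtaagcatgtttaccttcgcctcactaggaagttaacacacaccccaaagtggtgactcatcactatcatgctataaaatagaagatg
Dpt, a matrix protein gene of fibroblasts and the fourth in the order of differences on the PaS side, plus strand, chr1:164796413-164796662, holds the same word from -10 to -4.
Dpt: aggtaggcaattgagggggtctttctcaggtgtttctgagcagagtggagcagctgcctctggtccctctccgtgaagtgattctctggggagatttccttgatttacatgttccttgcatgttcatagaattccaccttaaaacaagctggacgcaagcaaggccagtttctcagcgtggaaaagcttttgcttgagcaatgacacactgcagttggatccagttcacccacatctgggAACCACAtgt
The word was therefore present before genes of either side, and it stands in 4.40% of all 32851 promoters of the table. Dpp4, a surface peptidase gene of fibroblast progenitors that was higher in PaS, is on the minus strand at chr2:62412232-62412481. Its capitals mark a match to the EBF consensus, TCCC and GGGA with 2 bases between, which reads the same on both strands and stands in 0.779% of all promoters.
Dpp4: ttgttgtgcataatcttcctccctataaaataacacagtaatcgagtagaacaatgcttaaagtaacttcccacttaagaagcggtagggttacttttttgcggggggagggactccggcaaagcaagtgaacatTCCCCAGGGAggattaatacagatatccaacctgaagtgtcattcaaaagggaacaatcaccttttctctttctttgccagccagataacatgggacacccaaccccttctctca
Only 69.8% of the genes higher in CAR by more than 2-fold and 72.2% of those higher in PaS matched a promoter, under 80%, so a comparison of motif shares between them is void and not given. A match is a stretch of letters and not a measured binding site.

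Cartilage genes went both ways. Col2a1, the main collagen of cartilage, was at 362, 419 and 331 FPKM in CAR and 18.4, 17.5 and 18.6 FPKM in PaS, with no overlap. Its partners Col11a2 (91.6 and 1.63), Col11a1 (67.4 and 4.63), Col9a3 (29.1 and 2.34), Col9a2 (25.8 and 1.95) and Col9a1 (9.63 and 0.297), and the growth plate genes Ucma (16.3 and 1.06) and Lect1 (32.1 and 3.05), stood on the same side. Other cartilage genes were higher in PaS. Prg4, which encodes lubricin of the joint surface, was at 238, 226 and 313 FPKM in CAR and at 1602, 1714 and 1634 FPKM in PaS. The matrix genes Comp (284 and 1177 FPKM), Cilp (121 and 361), Matn4 (5.98 and 22.2), Chad (311 and 407) and Epyc (0.814 and 14.3) also stood higher in PaS. Sox9, the factor that directs cartilage formation, was at 20.5 ± 2.51 and 20.1 ± 0.581 FPKM and did not pass the test (adjusted p = 0.89). Of 25 tested of 30 listed cartilage and joint surface genes, 14 were higher in CAR and 9 in PaS. Among 15 tendon and ligament genes the counts were 5 and 8, with Thbs4 (48.9 and 253 FPKM), Tnmd (17.9 and 49.9) and Angptl7 (38.9 and 230) higher in PaS, and the tendon factor genes Scx (4.23 and 5.88) and Mkx (8.29 and 6.07) not past the test. Scx passed without CAR wt 3 (log2 difference -0.70, adjusted p = 0.014) and Mkx without CAR wt 2 (0.57, adjusted p = 0.01).

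Genes known from universal fibroblast progenitors gave the largest differences of all. Clec3b, a plasminogen-binding secreted protein gene, was at 0.416, 0.576 and 1.19 FPKM in CAR and at 330, 291 and 365 FPKM in PaS. The CAR values lie at the filter, so the log2 difference of -7.60 ± 0.15 (adjusted p = 1.7e-12) understates the ratio. Pi16 (2.55 ± 0.890 and 280 ± 19.4 FPKM), Dpt (1.42 ± 0.186 and 299 ± 8.63) and Mfap5 (6.40 and 665), which mark adventitial fibroblasts, and Ly6c1 (4.63 and 1168) followed. Ly6c1 is a member of the Ly6 family, as is Ly6a, and reads of near-identical members may not be fully separated. The stem and progenitor surface genes Cd34 (13.9 ± 2.35 and 650 ± 28.2 FPKM), Cd248 (4.96 ± 0.651 and 332 ± 4.32), Dpp4 (1.66 ± 1.02 and 40.4 ± 0.572) and Thy1 (0.603 ± 0.197 and 15.5 ± 0.726) stood higher in PaS with no overlap. Gsn was at 331, 382 and 312 FPKM in CAR and at 14224 and 14502 FPKM in the PaS libraries 1 and 3. The procollagen enhancer gene Pcolce2 (3.65 and 364), the granin gene Scg3, the methyltransferase gene Inmt and the cytochrome gene Cyp2f2 complete the 12 largest differences on this side together with Nov.

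The CAR side of the order was shorter and mixed. After Bglap (5.33) and Col11a2 (5.16) came Car3, a cytosolic carbonic anhydrase gene, at 345, 342 and 372 FPKM in CAR and 9.10, 11.9 and 11.8 FPKM in PaS. Prss35, a secreted protease-like gene, was at 27.1 ± 1.06 and 0.336 ± 0.208 FPKM. Bglap2 (1860 and 64.9 FPKM) is a near copy of Bglap and can share reads with it. Entpd3, Mlip and the amino acid transporter gene Slc36a2 were the other members of the first 12 outside the osteoblast and cartilage lists used here.

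Collagen genes differed by member. Col1a1 was at 4951, 5482 and 5210 FPKM in CAR and at 1241, 1179 and 1109 FPKM in PaS, and Col3a1, the fibrillar collagen of soft tissues, at 337, 328 and 350 in CAR and 3407, 3409 and 3251 in PaS. Each CAR library therefore held far more Col1a1 than Col3a1, and each PaS library more Col3a1 than Col1a1. Of 22 tested of 24 collagen genes, 8 were higher in CAR and 12 in PaS. The CAR side included Col13a1 (15.4 and 0.980 FPKM), Col8a1 (194 and 77.3) and Col22a1 (28.3 and 10.8), and the PaS side Col14a1 (0.629 and 56.6), Col6a3 (13.4 and 67.7) and Col15a1 (1.93 and 10.7). Col5a2 (128 and 124 FPKM) and Col16a1 (31.9 and 36.5) did not pass the test.

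Proteoglycans, elastic fibres and basement membrane leaned to PaS. Dcn, which regulates collagen fibril growth, was at 1523, 1490 and 1562 FPKM in CAR and at 10651, 11380 and 11123 FPKM in PaS. Of 14 tested of 15 small leucine-rich proteoglycan genes, 11 were higher in PaS and 3 in CAR, the latter being Bgn (1027 and 775), Omd (91.7 and 58.5) and Podnl1 (58.2 and 12.6). Of 19 elastic fibre genes, 11 were higher in PaS, with Mfap5, Ltbp4 (7.57 ± 1.38 and 289 ± 12.9 FPKM), Fbln2 (5.10 ± 0.613 and 205 ± 8.40) and elastin, Eln (2.98 and 29.7), in front. The other 6 that passed were higher in CAR and included fibulin-5, Fbln5 (354 and 126), and lysyl oxidase, Lox (153 and 70.1). Of 16 tested of 23 basement membrane genes, 12 were higher in PaS, such as Col4a5 (0.125 and 11.4), Lama2 (1.39 and 8.40) and Nid1 (70.3 and 225), and 4 in CAR. Hyaluronan genes higher in PaS included the synthase genes Has1 (6.78 ± 0.962 and 152 ± 5.02) and Has2 (1.48 and 16.1), the precursor enzyme gene Ugdh (78.3 and 334) and the receptor gene Cd44 (19.2 and 69.8). Fibronectin, Fn1, was at 58.2, 66.1 and 46.3 FPKM in CAR and at 1246, 1197 and 1134 FPKM in PaS.

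Matrix-cutting enzymes and their inhibitors differed by member. Mmp13 and the serpin gene Serpine2 (4450 and 1479 FPKM) were higher in CAR, while the gelatinase gene Mmp2 (183 and 885), the inhibitor genes Timp2 (258 and 1125) and Timp3 (50.8 and 225) and the plasminogen activator gene Plat (14.8 and 79.7) were higher in PaS. Of 31 listed genes, 10 were higher in CAR and 18 in PaS. Among 22 matricellular protein genes the counts were 10 and 11. Tenascin-C, Tnc, stood at 528 ± 13.4 FPKM in CAR and 115 ± 5.49 in PaS, and tenascin-X, Tnxb, at 0.261 in CAR and 26.9 in PaS. The CCN family divided too, with Cyr61 (1572 and 663) and Wisp1 (30.0 and 3.23) higher in CAR and Nov higher in PaS.

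**Figure D3:**
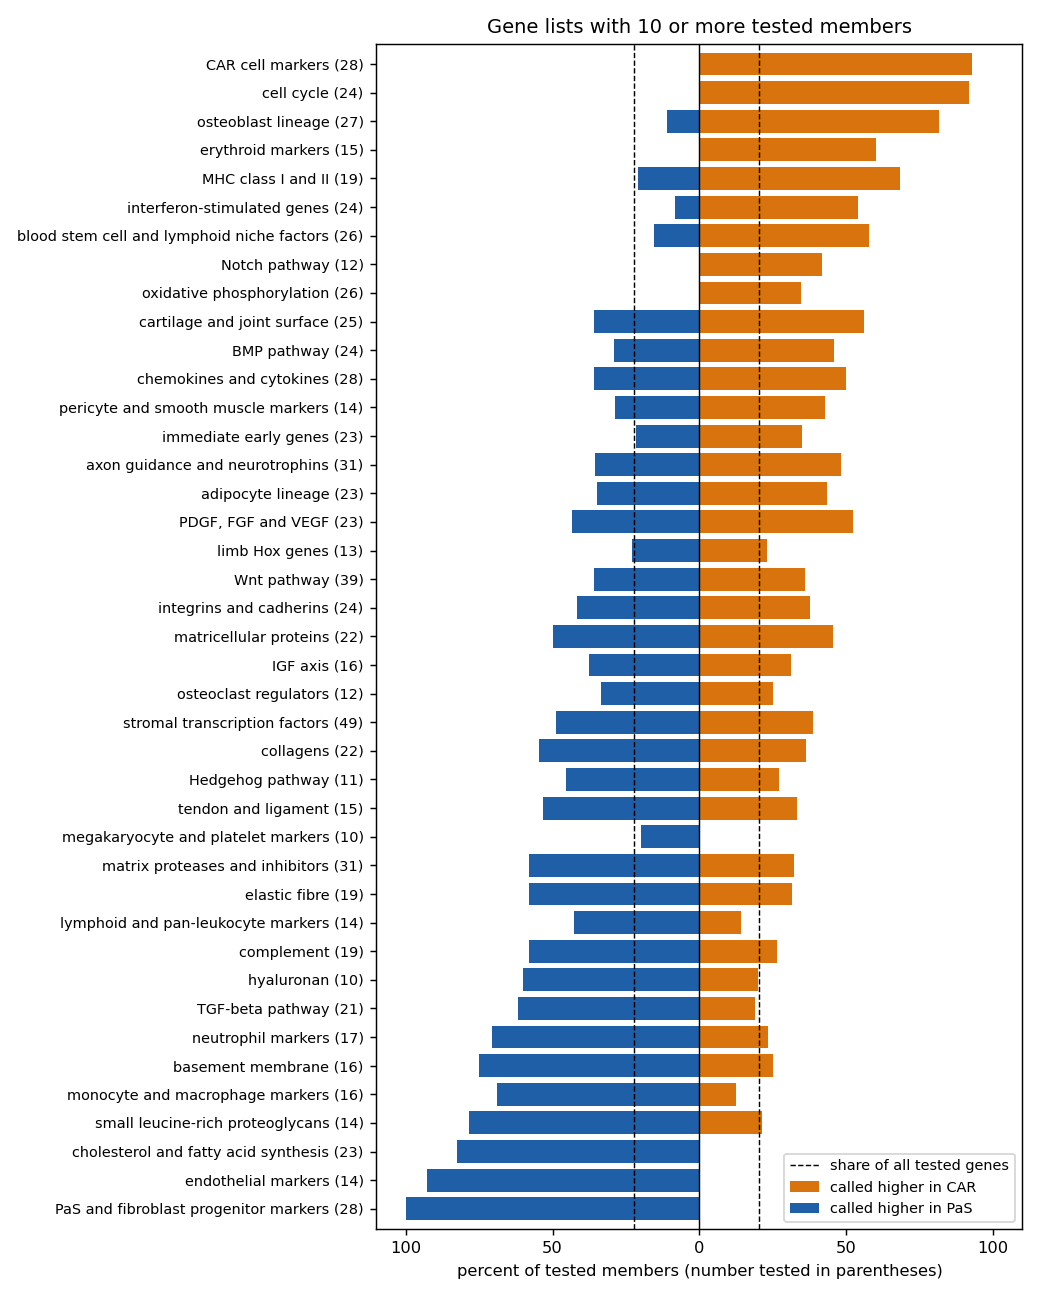
Percent of the tested members of each gene list called higher in CAR (orange, to the right) or in PaS (blue, to the left), with the number tested beside each name. The dashed lines mark the shares for all tested genes, 20.2% and 22.1%. The osteoblast, CAR marker and cell cycle lists reach far to the right, and the cholesterol, endothelial and PaS marker lists far to the left.

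Ligands of the Wnt pathway and their secreted inhibitors differed by member, and the list as a whole was even. Of 39 tested of 44 genes, 14 were higher in CAR and 14 in PaS. Among ligands, Wnt4 (17.8 and 2.51 FPKM) was higher in CAR, and Wnt11 (3.48 and 22.3), Wnt9a (1.73 and 11.3) and Wnt5a (4.31 and 11.2) in PaS. Wnt2 was listed at 0 in all 3 CAR libraries and at 6.70, 9.12 and 6.99 FPKM in PaS. Among inhibitors, Dkk1 was at 5.72, 4.61 and 6.54 FPKM in CAR and at 0, 0.172 and 0 FPKM in PaS, while Dkk2 was at 0.509, 0.175 and 0.109 FPKM in CAR and at 27.6, 25.3 and 24.2 FPKM in PaS. Dkk1 passed the filter only through CAR and Dkk2 only through PaS, so the filter fixed their directions. Wif1, which binds Wnt ligands outside the cell, was at 308 ± 5.75 and 59.9 ± 4.56 FPKM, and Sfrp4 at 1054 and 2142. The R-spondin genes Rspo2 (35.2 and 14.8) and Rspo3 (36.0 and 11.8), which strengthen Wnt signalling, were higher in CAR.

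BMP genes leaned to CAR and TGF-beta genes to PaS. Of 24 tested BMP pathway genes, 11 were higher in CAR and 7 in PaS. The ligand genes Bmp6 (181, 209 and 175 FPKM in CAR against 49.9, 45.8 and 49.0 in PaS), Bmp4 (92.7 and 37.9) and Bmp3 (16.8 and 1.64) and the antagonist genes Grem1 and Chrdl1 (329 and 101) were all among the 11. The ligand genes Gdf10 (log2 difference -1.13) and Bmp2 (-0.40) and the antagonist gene Chrd (-1.51) were among the 7 higher in PaS. Agonists and antagonists therefore stood on both sides. The target genes gave no single direction: Smad6 (30.7 and 14.7) and Id3 (1730 and 1165) were higher in CAR, Id2 (230 and 308) in PaS, and Id1 (101 and 95.8) did not pass the test. Of 21 TGF-beta pathway genes, 13 were higher in PaS and 4 in CAR. They included the ligand gene Tgfb2 (3.68 ± 0.466 and 23.1 ± 0.145), the receptor gene Tgfbr2 (26.0 and 100) and the target gene Tgfbi (18.8 and 235). Tgfb1 was at 25.0 and 22.5 FPKM and did not pass the test.

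Growth factors for vessels and mesenchyme differed by member. Vegfa (114 and 58.9 FPKM), Vegfc (110 and 35.9), Angpt4 (59.9 and 15.1) and Pdgfa (64.3 and 30.3) were higher in CAR. Figf, which encodes VEGF-D, was at 0.340, 0.0898 and 0.290 FPKM in CAR and at 19.2, 19.6 and 20.5 FPKM in PaS. The receptor genes Fgfr2 (122 and 36.5) and Fgfr3 (30.9 and 6.50) were higher in CAR and the ligand gene Fgf18 (3.32 and 32.1) in PaS, and Fgf10 was listed at 0 in all CAR libraries and at a mean of 5.27 FPKM in PaS. PDGF receptors were exchanged, with Pdgfrb at 189 and 93.0 FPKM and Pdgfra at 57.9 and 142. Of the IGF axis, Igf1 (51.6 and 130) and the binding protein gene Igfbp6 (48.6 ± 4.26 and 1366 ± 80.3) were higher in PaS, and Igfbp3 (276 and 127) and Igfbp4 (3070 and 1479) in CAR. Among 12 tested Notch pathway genes 5 were higher in CAR and 0 in PaS, the receptor gene Notch3 (17.2 and 5.81), the modifier Lfng (20.7 and 7.54) and the targets Hes1 (272 and 151), Hey1 (23.7 and 10.5) and Heyl (32.6 and 13.9). The called share of the Notch list was 41.7%, against 42.2% of all tested genes (20.2% higher in CAR). Of 11 tested Hedgehog pathway genes 3 were higher in CAR, 1 without CAR wt 2 or without PaS wt 2, and 5 in PaS. The co-receptor genes Cdon (1.21 and 14.1), Gas1 (110 and 479) and Boc (log2 difference -1.51) were higher in PaS. The receptor gene Ptch1 (3.02 and 1.73), the transducer gene Smo (30.2 and 24.5) and the inhibitor gene Sufu (log2 difference 0.77) were higher in CAR. Ptch1 did not pass without CAR wt 1, CAR wt 2, PaS wt 1 or PaS wt 2 or with the replicate block (0.56, adjusted p = 0.052), nor Smo without CAR wt 2, CAR wt 3, PaS wt 2 or PaS wt 3. The ligand genes Shh, Ihh and Dhh did not reach the filter.

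Regulators of osteoclasts, the bone-resorbing cells, differed by member. Of 12 listed genes 3 were higher in CAR, Csf1, Il34 and the gene of RANKL. The 4 higher in PaS were Wnt5a, Sema3a, Il11 (0.570 and 1.65 FPKM) and the protease gene Ctsk (log2 difference -1.00). Il11 passed the filter only through PaS, so the filter fixed its direction. The called share of the list was 58.3%, against 42.2% of all tested genes (20.2% higher in CAR and 22.1% in PaS). RANKL, Tnfsf11, was at 38.5, 43.3 and 45.1 FPKM in CAR and at 13.4, 13.0 and 11.3 FPKM in PaS. Its decoy receptor gene Tnfrsf11b was at 14.3, 15.9 and 14.6 FPKM in CAR and 14.7, 15.9 and 18.5 FPKM in PaS, and did not pass the test (adjusted p = 0.44). The RANKL libraries did not overlap, and those of the decoy did.

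Chemokines fell into sets of opposite direction. Besides Cxcl12, CAR libraries were higher in Ccl2 (485 and 235 FPKM), Cxcl10 (162 and 58.2), Cx3cl1 (93.6 and 35.6) and the interleukin-1 antagonist gene Il1rn (198 and 50.8). PaS libraries were higher in the eosinophil attractant gene Ccl11 (9.96, 5.71 and 9.34 FPKM in CAR against 176, 198 and 200 in PaS), in Ccl8 (0.426 ± 0.545 and 50.4 ± 3.97), in the B cell attractant gene Cxcl13 (6.55 and 31.6) and in the alarmin gene Il33 (2.28 ± 0.613 and 34.5 ± 1.81). Of 28 tested genes of chemokines and cytokines, 14 were higher in CAR and 10 in PaS, and Il6 (91.7 and 101) did not pass the test. Complement genes leaned to PaS, 11 of 19 against 5. The terminal component gene C7 was at 0, 0.214 and 0 FPKM in CAR and 28.8, 32.8 and 27.4 FPKM in PaS, and C6 stood the other way, at 56.4 and 14.1 FPKM.

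Guidance and adhesion genes differed by member. Of the 6 tested genes of secreted class 3 semaphorins 5 were higher in PaS, among them Sema3c (2.82 ± 1.27 and 65.7 ± 2.39 FPKM), Sema3e (0.499 and 20.8), Sema3f (0.531 and 5.27) and Sema3a (0.884 and 5.64), and Sema3d (5.74 and 5.62) did not pass the test. The semaphorin receptor genes Nrp2 (56.3 and 15.4) and Nrp1 (108 and 69.5) were higher in CAR. Netrin-1, Ntn1 (2.27 and 34.1), was higher in PaS and its receptor genes Unc5b (6.23 and 1.16) and Unc5c (1.45 and 0.424) in CAR, the latter not past the test without PaS wt 3 (log2 difference 0.63, adjusted p = 0.054). The neurotrophin receptor gene Ntrk2 (0.559 ± 0.303 and 18.1 ± 1.51) was higher in PaS. Cadherins divided by member, with Cdh2, Cdh11 (288 and 105) and Cdh15 (17.9 ± 1.56 and 1.80 ± 0.838) higher in CAR and Cdh13 (9.88 ± 2.76 and 165 ± 9.49) higher in PaS. The fibronectin receptor gene Itga5 (13.2 and 38.8) was higher in PaS and the collagen receptor gene Itga1 (26.7 and 9.77) in CAR, and Itgb1, the beta chain of both, was at 251 and 242 FPKM and did not pass the test.

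Most stromal transcription factor genes differed between the populations, in both directions. Of 49 tested of 54 stromal transcription factor genes, 19 were higher in CAR and 24 in PaS. Osr2 was at 5.48, 5.52 and 5.38 FPKM in CAR and at 84.5, 77.6 and 82.4 FPKM in PaS, and its relative Osr1 at 2.51 ± 0.218 and 36.2 ± 3.17. Meox2 (3.29 ± 0.214 and 51.4 ± 2.25), Creb5 (1.10 ± 0.328 and 30.4 ± 3.56), Prrx2 (11.9 ± 0.761 and 82.7 ± 6.40) and Barx1 (1.71 and 11.4) were also higher in PaS. Besides those of bone and fat, the CAR side held the abundant Cebpb (507 and 323), Irx3 (16.9 and 5.43), Snai2 (146 and 65.0), Runx1 (52.9 and 22.2) and Shox2 (30.2 and 14.5). Prrx1, whose enhancer drives the Cre of these mice, was at 24.2 FPKM in CAR and 39.3 in PaS. Of 13 tested of 23 limb Hox genes, 3 were higher in each population, and the most abundant, Hoxa10, was at 29.7 and 30.4 FPKM and did not pass the test (adjusted p = 0.9). The called share of the Hox list was 46.2%, near the 42.2% of all tested genes. Hoxb2 (9.26, 11.3 and 12.3 FPKM in CAR against 3.21, 1.95 and 2.54 in PaS) and Hoxd9 (0.517 and 3.28) moved in opposite directions.

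Genes of cholesterol and fatty acid synthesis were higher in PaS. Of 23 tested of 25 genes, 19 were higher in PaS and 0 in CAR, with a median log2 difference of -0.81. Sqle, which encodes squalene epoxidase of the cholesterol pathway, was at 8.09, 8.30 and 8.16 FPKM in CAR and at 23.4, 23.5 and 21.5 FPKM in PaS, with no overlap. The regulator gene Srebf2 (11.5 and 22.2) was higher in PaS, and the fatty acid synthase gene Fasn (5.34 and 6.37 FPKM) did not pass the test. Immediate early genes, which can respond to cell isolation, gave 8 higher in CAR and 5 in PaS of 23. Their called share was 56.5%, against 42.2% of all tested genes. Fos was at 3208 and 2835 FPKM (log2 difference 0.18), turned to -0.38 under quantile normalization, and did not pass without CAR wt 2 or without CAR wt 3. Of 26 genes of oxidative phosphorylation 9 were higher in CAR and 0 in PaS, none of them by more than 2-fold, and without CAR wt 1 the count was 5. The called share of this list was 34.6%, against 42.2% of all tested genes (20.2% higher in CAR). In every list with 0 members called on a side, limma at an unadjusted p under 0.05 gave 0 on that side too, except for 1 gene higher in PaS in this list and 1, Ebf1, among the CAR markers.

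Antigen presentation genes that passed the test were mostly divided by class. Of 19 tested genes 13 were higher in CAR and 4 in PaS, 89.5% called against 42.2% of all tested genes. Genes of class I and its loading, such as H2-K1 (2128, 2121 and 2082 FPKM in CAR against 686, 682 and 699 in PaS), H2-D1 (3538 and 1407), B2m (6332 and 2665) and Psmb9 (81.3 and 32.7), were higher in CAR. H2 genes are near copies of each other and can share reads. The class II genes Cd74 (49.1 ± 1.83 and 117 ± 4.24), H2-Aa (12.2 and 28.6), H2-Ab1 (14.4 and 28.3) and H2-Eb1 (6.02 and 10.8) were higher in PaS. The class II genes H2-DMa and H2-DMb1 did not pass the test. Of 24 tested interferon-stimulated genes 13 were higher in CAR and 2, Ifit2 (3.41 and 12.7) and Rsad2 (6.25 and 9.73), in PaS.

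Cell cycle genes were higher in CAR by small amounts. Of 24 listed genes 22 were higher in CAR and 0 in PaS, with a median log2 difference of 0.71, and only 2 passed 2-fold. Birc5 was at 64.0, 55.4 and 54.4 FPKM in CAR and at 29.6, 22.7 and 30.4 FPKM in PaS, and Top2a at 15.5 and 6.61. Some genes of blood cell precursors were higher in CAR as well, and others were not. Higher were the neutrophil granule genes Mpo (586, 473 and 448 FPKM in CAR against 137, 163 and 149 in PaS), Elane (560, 457 and 432 against 170, 157 and 161), Ctsg (89.3 and 20.9) and Prtn3 (136 and 51.4), and the erythroid genes Car1 (190 ± 2.42 and 40.9 ± 1.97), Klf1 (35.9 and 14.7) and Gata1 (14.9 and 5.37). Dntt, of lymphoid precursors (1.78 and 4.27), and Fcnb, of neutrophil precursors (22.8 and 40.4), were higher in PaS, and the B cell precursor genes Igll1 (11.2 and 10.3) and Vpreb1 (log2 difference 0.18) and the granulocyte factor gene Cebpe (3.09 and 4.29) did not pass the test. Igll1 passed without PaS wt 3 (log2 difference 0.41, adjusted p = 0.046). Vpreb3, another gene of the B lineage, was higher in CAR. The 14 tested lymphoid and pan-leukocyte markers gave 2 higher in CAR and 6 in PaS. Without CAR wt 1, CAR wt 2, CAR wt 3 or PaS wt 1 the CAR count was 1. Of 15 erythroid markers 9 were higher in CAR and 0 in PaS (1 without CAR wt 2, 2 without PaS wt 2), their summed FPKM was 0.811% to 0.951% of the total in CAR and 0.727% to 0.867% in PaS, and no listed marker was at 0 throughout. Their part in the cell cycle difference was not tested.

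Transcripts of blood cells were present in all 6 libraries, and their summed share was higher in PaS. The 91 genes of the blood cell lists summed to 3.18% to 3.65% of the FPKM in CAR and 5.89% to 6.18% in PaS. The groups did not overlap, and 3 against 3 libraries cannot give an exact two-sided permutation p below 0.1. Most of this came from 17 neutrophil markers (2.06% to 2.41% and 4.65% to 4.87%), of which 12 were higher in PaS and the 4 granule genes of precursors in CAR. S100a8, an abundant protein gene of mature neutrophils, was at 5763, 5682 and 4826 FPKM in CAR and at 12320, 10919 and 12795 FPKM in PaS. Of 16 tested macrophage and monocyte markers 11 were higher in PaS and 2, Ly6c2 and Ms4a6c, in CAR. The latter count was 1 without CAR wt 1, without CAR wt 2 or without PaS wt 2, where Ly6c2 did not pass, and 0 with no filter. The sum of the list was 0.120% to 0.151% in CAR and 0.285% to 0.288% in PaS. The macrophage gene C1qb was at 2.34, 0.177 and 1.58 FPKM in CAR and 69.8, 51.6 and 66.7 FPKM in PaS. The higher class II and C1q values of PaS stand beside these markers, and the part of macrophages in them was not tested. Of 8 tested basophil, mast cell and eosinophil markers 6 were higher in PaS and 0 in CAR, 3 without CAR wt 1, without CAR wt 3 or without PaS wt 1. The T and B cell genes Cd3e, Cd3d, Cd3g, Pax5 and Rag1 were under 1 FPKM in every library.

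Endothelial genes were low and one-sided. Of 14 tested of 17 markers 13 were higher in PaS and 0 in CAR, and 6 of them passed the filter only through the PaS libraries. Plvap was at 2.37, 3.65 and 2.34 FPKM in CAR and at 25.7, 22.5 and 23.9 FPKM in PaS, and the angiopoietin receptor gene Tek at 0.416 ± 0.128 and 21.0 ± 2.93. The summed markers made up 0.00543% to 0.00587% of the FPKM in CAR and 0.0202% to 0.0232% in PaS, and Flt1 and Sox17 were under 1 FPKM in every library. The basement membrane and vascular growth factor differences stand beside this, and the part of endothelial RNA in them was not tested. Markers of Schwann cells and of skeletal muscle were often under the filter, 8 of 10 and 7 of 14. Pericyte and smooth muscle genes gave 6 higher in CAR and 4 in PaS of 14 tested. Their called share was 71.4%, against 42.2% of all tested genes. Mylk (27.3 ± 2.95 and 6.51 ± 0.776) was on the CAR side and Mustn1 (5.15 ± 2.00 and 93.3 ± 7.41) on the PaS side. Acta2 was low in both, at 3.08 and 4.60 FPKM.

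**Figure D4:**
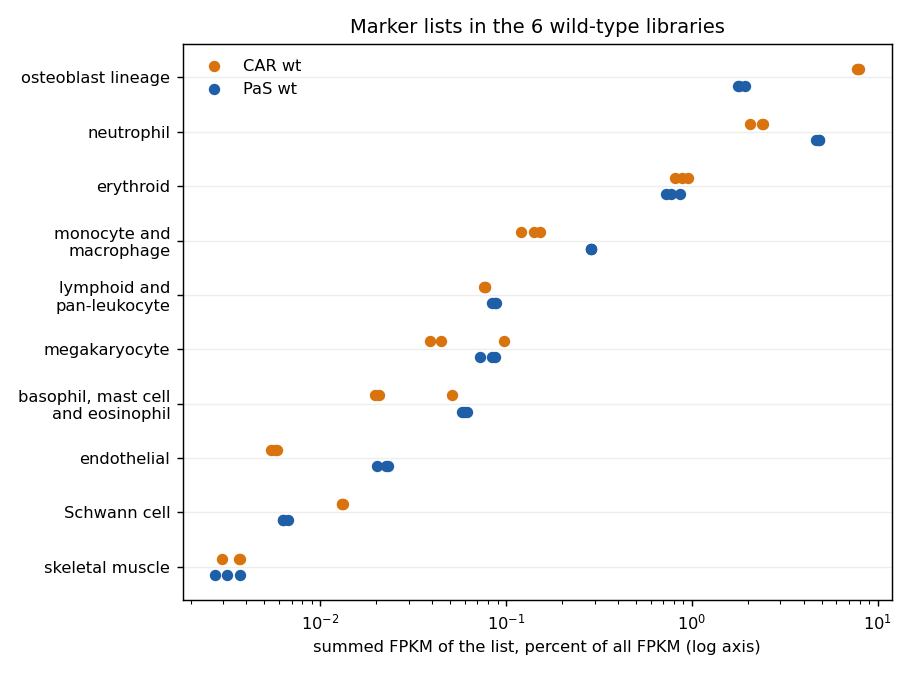
Summed FPKM of marker lists of other cell types and of the osteoblast list, as percent of all FPKM in each of the 6 wild-type libraries (log axis), 1 point per library. Neutrophil, macrophage, basophil and endothelial markers are higher in the PaS libraries, osteoblast markers are higher in CAR, and the erythroid points of the populations overlap.

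The same populations were sorted from mice labelled ko, in libraries that share none with the wild-type comparison. In the libraries labelled ko, Ebf1 was at 57.5 ± 1.99 FPKM in CAR and 62.5 ± 2.18 FPKM in PaS, not below the wild-type values of 48.1 ± 1.10 and 55.9 ± 5.89 FPKM. A value for the whole gene can include exons outside the deleted part, so it does not check these labels. In the libraries labelled ko 4605 genes (37.0%) differed between CAR and PaS. Of the 1687 genes (13.6%) that differed by more than 2-fold in wild type, 1519 (90.0%) differed in the same direction in ko, 8 in the opposite direction, and 160 did not pass the test. Of the 1449 genes that differed by more than 2-fold in ko, 93.7% differed in the same direction in wild type. The identity genes were among those that kept their direction in ko, as Cxcl12 (log2 difference 1.63 in wild type and 1.60 in ko), Bglap (5.33 and 5.41), Clec3b (-7.60 and -6.98) and Cd34 (-5.46 and -5.60). The size of the population difference itself differed between genotypes for 878 genes (7.06%, limma interaction over 12 libraries), 357 of them among the 1687.

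Among the exceptions were genes of the cartilage, joint and blood cell lists. Prg4 differed by -2.68 in wild type and by 0.03 in ko (adjusted p = 0.68), and the interaction was -2.71 (adjusted p = 1.7e-09). Cilp differed by -1.57 and -0.33, and Postn, a matricellular gene of bone surface and ligament, by -0.71 and 0.71. Among the 8 genes that passed the test in opposite directions were the cartilage genes Col9a3 (3.17 and -0.52), Lect1 (3.05 and -0.81) and Matn3 (1.36 and -0.98), the basophil protease genes Mcpt8 (-2.19 and 2.71) and Prss34 (-2.43 and 3.85), the erythroid gene Rhd, Gbp9 and Gpha2. The cell cycle gene Birc5 differed by 1.05 in wild type and -0.20 in ko (adjusted p = 0.12), and Mpo by 1.73 and 0.58.

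**Figure D5:**
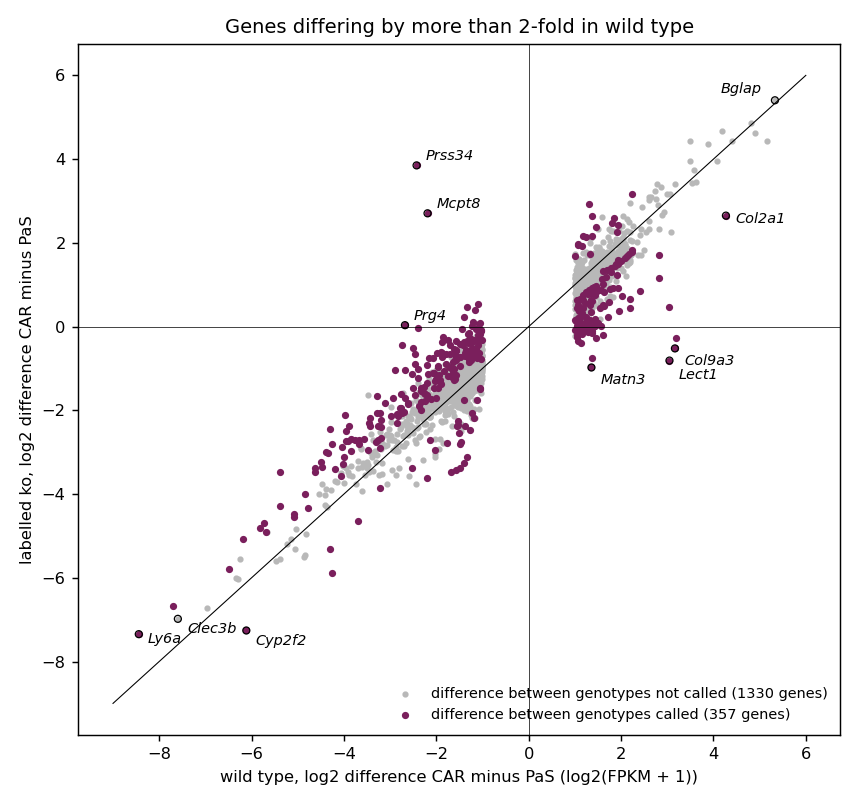
Log2 difference CAR minus PaS in wild-type libraries (horizontal) and libraries labelled ko (vertical) for the 1687 genes that differed by more than 2-fold in wild type, with the 357 genes whose difference itself differed between genotypes in darker points. Most points lie near the diagonal, and Prss34 and Mcpt8 lie in the upper left.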

How the data were processed

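RNA of sorted cells was measured in 12 libraries, 3 per group, of which the 6 wild-type libraries form the main comparison. The 8 ATAC-seq samples were not analysed here. The submitters' processing notes name mm10, TopHat2 2.0.14, Cufflinks 2.2.1 and Cuffnorm 2.2.1, with no role or order. Per the file headers, each deposited table holds FPKM of 24347 genes for 1 library. The gene annotation, any filter and the use of strand are not given in the sources used here, so overlapping and antisense genes cannot be told apart. No read counts are given, and 252 of 2017 low genes lay on steps of a single read in every library (within 0.03 of a whole number), too few to recover counts, so the depth is unknown.

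Genes with at least 1 FPKM in 3 of the 6 libraries were tested with limma 3.58.1 on log2(FPKM + 1), with a mean trend, equal weights, 7.91 prior and 4 residual degrees of freedom, two-sided, and Benjamini-Hochberg adjustment over all 12441 genes. A value of 0 beside at least 100 FPKM in the same group was set to missing, which among named genes touched only Gsn in PaS wt 2. The libraries labelled ko were fitted in the same way, and the interaction over all 12. On simulated data of 12439 genes with 200 changed, the test recovered 93% of those changed by a log2 value of 1 and 100% at 2, and 2.03% of its calls were false. The changes were placed only in genes with a mean log2 value above 3, in independent normal noise. They were also far fewer than the genes called in the data. These rates therefore do not cover genes near 1 FPKM or the real comparison as a whole.

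The named genes are the gate, EBF and CAR genes fixed by name, the 12 largest called differences in each direction without overlap, the 5 most abundant genes per population, and from each of 46 lists up to 4 called members per direction with the largest difference and up to 3 members not called with the highest mean. Further list members were named after their values were seen. A few members that the rule names are not reported here. Genes, lists and members were chosen with earlier results of these data known, and the spellings of 2 listed symbols were matched to the tables. The RUNX word was added to the EBF word, and the printed promoters were chosen, after motif matches were seen. Near-identical genes (Ly6, Bglap, H2, hemoglobin, Gbp) can share reads.

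Same-numbered replicates of the populations did not deviate together (correlations -0.0436, 0.0465 and 0.00493), so the numbers were not treated as pairs. Alternatives were other pseudocounts, filters, scalings and fits, the replicate number as a block, and leaving out each library.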

Additional observations from a re-analysis of the deposited data

Results flagged for a closer look

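The difference between CAR and PaS itself differed between wild type and libraries labelled ko for a number of the genes described (limma interaction over 12 libraries, adjusted p under 0.05). The values are the wild-type log2 difference CAR minus PaS, minus that of the libraries labelled ko.

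Genes of the PaS side were mostly less far apart in the libraries labelled ko, with interactions of -1.12 for Gsn, -1.11 for Scg3, -1.10 for Ly6a, -1.05 for Nov, -1.04 for Ly6c1, -1.00 for Cd248, -0.71 for Mfap5, -0.54 for Dcn and -0.52 for Pdgfra. Cyp2f2 went the other way, with 1.15. Ly6a and Pdgfra are genes of the sort gate. On the CAR side the interactions were 1.62 for Col2a1, 0.44 for Adipoq and 0.43 for B2m.

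Joint and bone surface genes gave -2.71 for Prg4, -1.43 for Postn and -1.24 for Cilp. Cartilage genes gave 3.86 for Lect1, 3.69 for Col9a3 and 2.34 for Matn3. Among blood cell genes the values were -6.28 for Prss34, -4.90 for Mcpt8, -0.65 for S100a9, -0.60 for S100a8, 1.15 for Mpo and 1.53 for Rhd. The cell cycle gene Birc5 gave 1.25. Gpha2, a hormone subunit gene, gave 2.12, and Gbp9, an interferon-induced GTPase gene, -1.64.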

How the results depend on the processing

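Of 102 recomputed counts over all genes, 101 stayed within 1.5 times the value reported, and the exception was the number of genes past 2-fold with a pseudocount of 5 (841 against 1687), which shrinks the differences of low genes by construction. Without each library in turn, the called genes numbered 4538 to 4894 (2122 to 2325 higher in CAR, 2416 to 2580 in PaS), those past 2-fold 1675 to 1723, those called in ko 3934 to 4265, and the interaction calls 660 to 776. With the replicate number as a block 5204 genes were called, and the numbers did not pair the samples. Quantile normalization gave 54.3% of calls higher in CAR against 47.7%. Of 263 of the genes named and tested, 241 kept their direction and their side of the threshold in every alternative that tested them. Fos (-0.38) and Serping1 (-0.45) reversed under quantile normalization. Hoxa10 (-0.02, not called) reversed to 0.04 under quantile normalization and ranged from -0.17 to 0.09 without a library, and Sox9 (0.02, not called) to -0.01 with library weights, from -0.07 to 0.09 without a library. Further genes that were not called changed sign without a library: Sema3d (-0.02) ranged from -0.30 to 0.13 (0.03 under quantile normalization), Lipe (-0.10) from -0.30 to 0.09 and Igll1 (0.16) from -0.02 to 0.41. Gpx3 lost its call in 6 alternatives, and Gsn with its 0 kept (-0.79, adjusted p = 0.84). Of 1656 recomputed list counts 1609 stayed within 1.5 times, and the erythroid count on the PaS side went from 0 to 1 or 2 in 4 alternatives. With a filter of 5 FPKM, 6 endothelial markers were called higher in PaS, since fewer were tested. The cause was not tested for the other changes. Depth is unknown, so differences of genes near 1 FPKM are the least certain.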

Other observations

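Gapdh, the glycolytic enzyme gene often used as a reference, was listed at 1.31, 1.35 and 1.30 FPKM in CAR and at 1.36, 1.69 and 2.08 FPKM in PaS, far below other housekeeping genes such as Atp5b (462 and 460 FPKM).

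The summed megakaryocyte list was 0.0390% to 0.0973% of all FPKM in CAR and 0.0720% to 0.0869% in PaS, with overlapping groups, and the basophil, mast cell and eosinophil list 0.0198% to 0.0510% in CAR and 0.0580% to 0.0617% in PaS.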
